A study of Mus musculus with 24 samples.

Results

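The CSF1 receptor (Csf1r) and its ligands, colony stimulating factor 1 (Csf1) and interleukin 34 (Il34), were followed through every cell class of the brain of Pdgfb ret/ret mice and their Pdgfb ret/wt controls. The members were the 3 genes of these names among the 32288 genes of the count tables, and all 3 were measured in each of the 24 libraries. The libraries hold single nuclei from 6 mutant (Pdgfb ret/ret, female) and 6 control mice (Pdgfb ret/wt, 5 female and 1 male) of the strain B6.Pdgfbtm3Cbet, aged 4 months 7 days to 5 months 18 days. Each brain gave 1 library of the deep brain, where calcifications form in the mutants, and 1 of the cortex, where they do not. Both genotypes carry the ret allele, which removes the retention motif of PDGF-B in the whole body, so the controls are heterozygous and not wild type, and no other allele or treatment is given in the labels. The 5′ reads do not assay the altered C terminus. Vascular mural nuclei, the cells that need retained PDGF-B, made up 0.0366% to 0.123% of deep brain nuclei in mutants and 0.202% to 0.372% in controls, a 3.07-fold difference (two-sided exact permutation test, p = 0.00216, the lowest the design allows).

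CSF1R is a receptor tyrosine kinase of microglia and macrophages. Its signal keeps microglia alive and drives their proliferation, and blocking the kinase empties the brain of them. CSF1 and IL34 bind the same receptor although their sequences are unrelated. In the brain, Il34 is known as a neuronal product and Csf1 as a product of glia.

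Deep brain libraries held 64736053 to 96459036 unique molecular identifiers (UMIs, 1 per captured RNA molecule) and cortical libraries 23625232 to 95605387. With the limits on genes and mitochondrial UMIs that the study states, 124958 of 127519 deep brain barcodes and 79967 of 109705 cortical barcodes were kept. The study itself counts fewer deep brain nuclei than these limits leave. The median nucleus of a library had 3547 to 7314.5 UMIs in the deep brain and 804 to 8054 in the cortex. In the cortex 53.6% of nuclei lay in clusters that could not be named, against 8.43% in the deep brain. At the clustering resolution used for these classes (0.1), endothelial, mural and fibroblast nuclei were named in the deep brain alone. Pairs of libraries shared 60 to 246 barcodes. Levels are UMIs of a gene per 1000000 UMIs (CPM) in all nuclei of a class in a library, given for libraries with at least 10 nuclei of the class. They serve to compare classes and mice for 1 gene. No levels are compared between genes, whose lengths differ.

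Csf1r (ENSMUSG00000024621; GRCm38 chromosome 18, 61100598 to 61132149, plus strand) was a gene of microglia and, at a lower level, of macrophages at the borders of the brain. It stood in the deep brain at 4340 ± 1499 CPM in microglia (mean ± SD, n = 12 libraries) and at 2021 ± 714 CPM in border macrophages (n = 10), whose ranges overlapped. No other class reached either range. T lymphocytes followed at 135 ± 170 CPM (n = 6), endothelial nuclei at 28.8 ± 38.3 CPM (n = 12), ependymal nuclei at 10.1 CPM, choroid plexus nuclei at 5.01 CPM and neurons, the lowest, at 2.93 ± 0.86 CPM (n = 12). Microglial clusters made up 2.72% of deep brain nuclei and carried 71.5% of all Csf1r UMIs. A further 19.2% lay in clusters that could not be named. For all microglial levels, microglial nuclei with a UMI of Mrc1, Mbp, Aqp4 or Rbfox3, markers of other cells, were left out. The study also removed nuclei with these markers but states no limit. It kept more deep brain microglia than the 1292 mutant and 985 control nuclei left here, although its figure legend gives fewer control mice. In the cortex microglia (5083 ± 1742 CPM, n = 12) and border macrophages (2654 ± 464 CPM, n = 3) again came first.

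Free RNA of microglia can give Csf1r UMIs in nuclei of other classes. The Csf1r UMIs of each class were therefore divided by the summed UMIs of 5 microglial genes (P2ry12, Tmem119, Siglech, Cx3cr1 and Fcrls) in the same nuclei. The ratio was 0.781 in deep brain microglia and 0.797 in cortical microglia. It was 0.20 in neurons, 0.308 in astrocytes and 0.524 in oligodendrocytes of the deep brain. In border macrophages it was 1.72 in the deep brain and 1.65 in the cortex, above the microglial ratio. In T lymphocytes it was 0.818, from 36 Csf1r UMIs, and in every remaining class it lay below that of microglia.

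Csf1 (ENSMUSG00000014599; chromosome 3, 107741048 to 107760469, minus strand) was spread over glia and vessels. In the deep brain, oligodendrocytes stood first at 147 ± 16.3 CPM (n = 12), followed by fibroblasts at 116 ± 25.3 CPM, endothelial nuclei at 109 ± 50.02 CPM, astrocytes at 55.8 ± 10.7 CPM and newly forming oligodendrocytes at 54.9 ± 17.3 CPM (each n = 12). Neighbors in this order overlapped between libraries. Ependymal nuclei held 46.3 CPM and choroid plexus nuclei 21.6 CPM. Microglia held 30.2 ± 16.4 CPM, oligodendrocyte precursors 18.8 ± 3.53 CPM and neurons 7.49 ± 1.00 CPM. Oligodendrocytes made up 24.2% of deep brain nuclei and carried 52.5% of the Csf1 UMIs. In the cortex they were 8.60% of nuclei with 40.9% of the UMIs, and their 160 ± 21.6 CPM (134.9 to 190 CPM, n = 12) had the highest mean. Single libraries of astrocytes (up to 173 CPM) and border macrophages (0 to 227 CPM, mean 75.5 CPM, n = 3) reached that range.

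Within the oligodendrocytes, Csf1 varied between clusters, which were made without the 3 genes. It was 103 CPM in the largest cluster of the deep brain (18882 nuclei, led by Il33 and Opalin) and 207 CPM in the second (11248 nuclei, led by Anln and Hapln2, genes of myelinating cells). A small cluster of 104 nuclei led by C4b, a complement gene, held 297 CPM from 91 UMIs. The clusters come from the same nuclei, so no test was made.

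Il34 (ENSMUSG00000031750, chromosome 8, 110741829 to 110805924, minus strand) was highest by CPM in the vessel wall, and most of its UMIs lay in neurons. Mural nuclei, the pericytes and smooth muscle cells of vessels, held 450 ± 208 CPM (n = 9) and fibroblasts 212 ± 74.6 CPM (n = 12). These ranges overlapped with each other, and that of fibroblasts lay above all lower classes. Endothelial nuclei followed at 24.5 ± 18.6 CPM and neurons at 22.8 ± 3.01 CPM, and every other class was at or below 9.51 CPM. Neurons were 51.3% of deep brain nuclei and carried 83.5% of the Il34 UMIs, fibroblasts 3.06% and mural nuclei 0.743%. In the cortex neurons held 36.5 ± 4.12 CPM (n = 12), apart from the next named class, and carried 77.9% of the UMIs. Cortical clusters left unnamed at the resolution used were higher. They held 352 CPM (23 UMIs) in 33 nuclei led by Vtn, Atp13a5 and Abcc9, 75.8% of them from 1 library, and 169 CPM in 300 nuclei led by Slc6a20a and Ranbp3l. Slc6a20a and Ranbp3l also led the fibroblast cluster of the deep brain. The gene overlaps the antisense transcripts Gm15894 and Gm15895, and Csf1r overlaps Hmgxb3 on the other strand. Whether counting used the strand is not given in the sources used here.

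**Figure D1:**
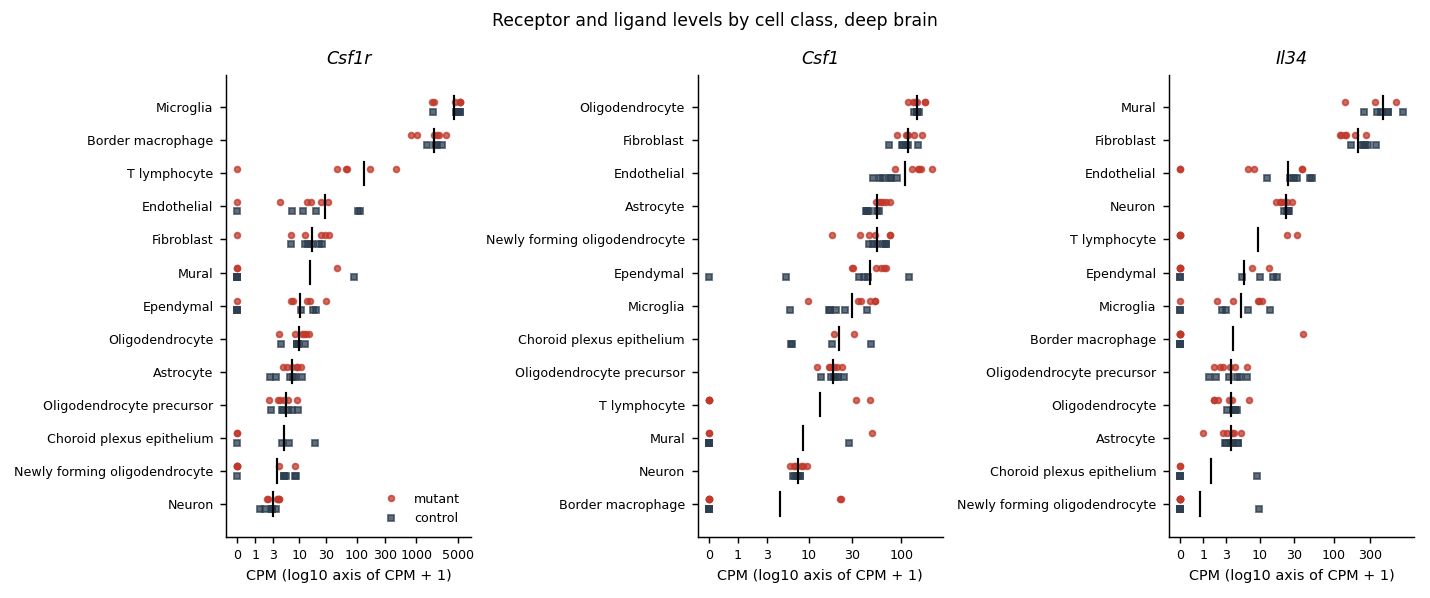
Level of Csf1r, Csf1 and Il34 in each cell class of the deep brain, in CPM on a log10 axis of CPM + 1. Each point is 1 library (circles, mutant; squares, control) and each vertical bar the mean over libraries. Csf1r is high in microglia and border macrophages, Csf1 is highest in oligodendrocytes, fibroblasts and endothelial nuclei, and Il34 in mural nuclei and fibroblasts.

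Among neurons, Il34 differed between clusters. In the cortex it was 48.9 CPM and 41.0 CPM in the pair of largest Slc17a7 (glutamatergic) clusters, 39.9 CPM in Lhx6 interneuron-like and 35.8 CPM in striatal projection neuron-like nuclei. Deep-layer excitatory-like nuclei held 22.7 CPM (2831 nuclei) and Adarb2 interneuron-like nuclei 18.6 CPM. In the deep brain the Slc17a7 cluster of 6751 nuclei held 38.5 CPM and striatal projection neuron-like nuclei 34.1 CPM, but thalamic excitatory-like nuclei 8.24 CPM. A deep brain cluster of 1725 nuclei that matched the Adarb2 interneuron list held 30.3 CPM. It was led by Npy, Vip and Sst, and Sst is a gene of the Lhx6 list, so it is not set against either cortical interneuron cluster. Among clusters of at least 200 nuclei, those of granule neurons included the lowest levels. Cerebellar granule-like nuclei held 3.07 and 3.43 CPM in their larger clusters, where 1 library gave 58.6% and 70.9% of the nuclei, and dentate granule-like nuclei 1.2 and 1.78 CPM in the deep brain and 4.78 CPM in the cortex. A small cluster of 214 nuclei, which shared Gabra6 and Fat2 with cerebellar granule neurons but was also led by Ror1 and Lmx1a, held 42.5 CPM.

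**Figure D2:**
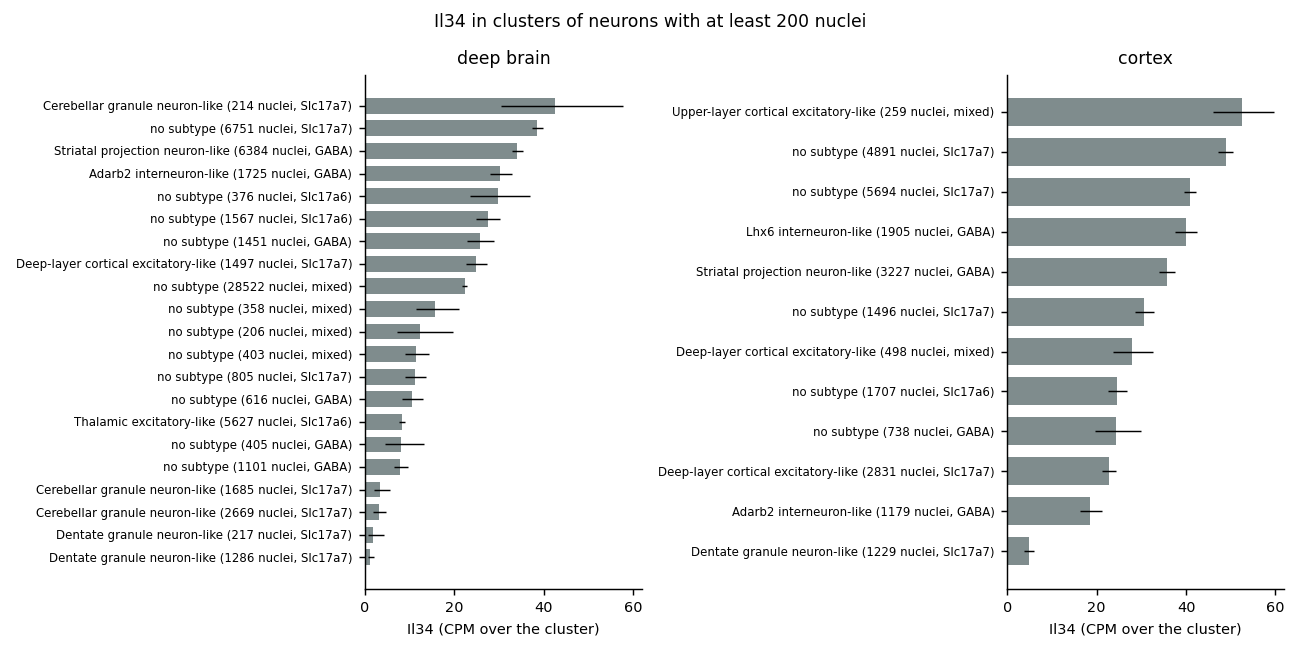
Il34 in clusters of neurons with at least 200 nuclei, in CPM summed over the cluster. Error bars are 95% Poisson intervals and cover counting error only, and labels give the subtype list that matched, the number of nuclei and the leading transmitter gene. Apart from the cluster of 214 nuclei at the top of the deep brain panel, granule neuron-like clusters lie at the bottom, and the largest Slc17a7 clusters lie near the top.

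The level of Csf1r in microglia split the mice into separate sets that did not follow the genotype. In the deep brain, mutants 1 to 6 held 1971, 4426, 5364, 1836, 5527 and 5505 CPM, and controls 1 to 6 held 1940, 4938, 5419, 5380, 5054 and 4723 CPM. Mutant 1, mutant 4 and control 1 lay at or below 1971 CPM and all others at or above 4426 CPM. The cortex, a separate library of each brain, gave 2251, 5821, 6432, 1963, 5547 and 5656 CPM in the mutants and 2605, 6426, 6820, 5722, 6104 and 5643 CPM in the controls, with the same 3 mice lowest. Border macrophages of the deep brain showed these mice lowest as well, at 1031 CPM in mutant 1, 833 CPM in mutant 4 and 1513 CPM in control 1, against 2020 to 3118 CPM in the other 7 libraries. The sum of the 5 microglial genes above did not separate them. It was 5516, 5309 and 6048 CPM in mutant 1, mutant 4 and control 1 in the deep brain and 4748 to 6421 CPM in the other mice.

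Some genes within 500 kb of Csf1r, each in some classes only, showed the same mice lowest. This window was examined after the Csf1r values were seen. Camk2a, a kinase gene that starts 175 kb before Csf1r, held 39.2, 94.2 and 56.2 CPM in microglia of mutant 1, mutant 4 and control 1 in the deep brain and 448 to 643 CPM in the other mice. In cortical microglia it held 98.2, 138 and 128 CPM against 571 to 817 CPM. In neurons, Slc6a7, a proline transporter gene that starts 105 kb before Csf1r, held 60.7, 58.8 and 52.4 CPM in these mice in the deep brain against 130 to 175 CPM, and 52.6, 62.2 and 51.7 CPM against 100 to 161 CPM in the cortex. Pdgfrb, the PDGF-B receptor gene 55.4 kb before Csf1r, was near 0 in neurons, where it was lowest in these mice in both regions (0.598 to 1.32 CPM). In the classes with more of it the ranges overlapped or other mice were among the lowest, except in deep brain astrocytes, which held 35.0 to 58.7 CPM in these mice and 60.6 to 144 CPM in the others. Fibroblasts (12 libraries) held 175 to 240 CPM in these mice against 233 to 405 CPM, and the lowest were mutants 1, 3 and 4. Mural nuclei (9 libraries) held 845 to 1546 CPM against 1081 to 3765 CPM. There the lowest were again mutants 1, 3 and 4, but these were the only mutants with at least 10 mural nuclei. The mural values therefore cannot tell the split between mice from the genotype.

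The split did not reach all genes of the window or all cells. Neuronal Camk2a ranged from 237 to 503 CPM in the deep brain with the 3 mice at 241, 388 and 440 CPM. The flanking genes Tcof1, Hmgxb3 and Slc26a2 overlapped between these mice and the others in microglia and neurons. Of 7577 genes with at least 60 UMIs in microglia of each region, 6 had the same 3 mice lowest in both regions, and 2 of these 6, Camk2a and Csf1r itself, by which the mice and the window were chosen, were among the 8 such genes within 500 kb of Csf1r. In neurons it was 8 of 19464 genes, and 2 of the 18 within 500 kb. In oligodendrocytes it was 4 of 12308 genes, with Csf1r the 1 of 13 within 500 kb, and in astrocytes 2 of 10823, with 0 of 11. Mutant 1 and control 1 share a replicate number and an age of 5 months and 3 days that no other mouse has, while mutant 4 shares its age of 4 months and 24 days with control 4, which was not low. Whether the 3 mice carry another allele of this region was not tested. Results on Csf1r are therefore given with all mice and without these 3, an alternative added after the values were seen. Since the 3 mice were chosen by microglial Csf1r itself, leaving them out narrows its spread by construction. For Csf1r in microglia and border macrophages only the difference without them is given, with no SE or p-value.

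**Figure D3:**
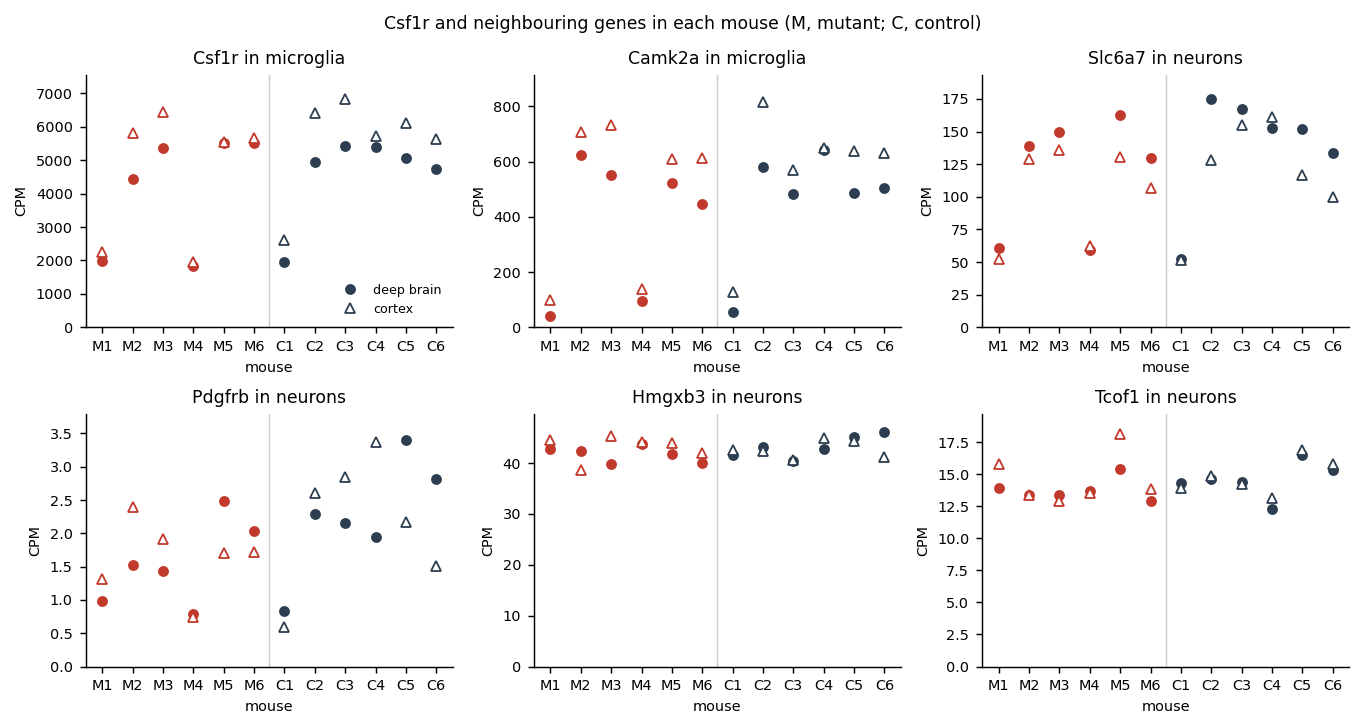
Csf1r and neighboring genes in each mouse, in CPM of microglia or neurons (M, mutant; C, control; filled circles, deep brain; open triangles, cortex). Mutant 1, mutant 4 and control 1 lie lowest for Csf1r and Camk2a in microglia and for Slc6a7 and Pdgfrb in neurons, and overlap with the other mice for Hmgxb3 and Tcof1.

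The mutants were compared with the controls in each class by edgeR's quasi-likelihood test on counts summed per mouse, adjusted by Benjamini-Hochberg over all genes tested. Enough counts were found for 18 of the 33 pairs of gene and class in the deep brain and 8 of 15 in the cortex. Csf1 rose in 3 of these 26 and no member fell at the threshold of 0.05. In the tests that did not pass, the log2 difference ran from -0.21 in newly forming oligodendrocytes to 0.79 in microglia for Csf1, from -0.67 in fibroblasts to -0.07 in cortical neurons for Il34 and from -0.27 in cortical microglia to 0.40 in deep brain neurons for Csf1r. The filter keeps a gene mostly in the classes where it is high, so the pairs tested are not all pairs.

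Csf1 was higher in mutant astrocytes of both regions. In the deep brain it ranged from 54.2 to 75.5 CPM in mutants (median 62.6) and from 42.5 to 58.6 CPM in controls (median 44.3), with a slight overlap. The log2 difference was 0.39 ± 0.10 (SE, edgeR, 6 against 6, adjusted p = 0.0400), where 5.0% of the genes tested were called and 3.13% as higher in mutants. In the cortex mutants held 77.5 to 173 CPM (median 86.7) and controls 41.1 to 64.1 CPM (median 56.2), with no overlap. There the log2 difference was 0.82 ± 0.19 (edgeR, adjusted p = 0.0257), where 2.16% of genes were called and 1.2% as higher. Both calls depended on single mice. Leaving out 1 mouse gave 0.33 to 0.45 with adjusted p from 0.0170 to 0.113 in the deep brain, where 7 of 12 omissions (controls 1, 3, 4 and 6, mutants 1, 2 and 3) lost the call, and 0.68 to 0.88 with adjusted p from 0.0182 to 0.0588 in the cortex, where 3 did (controls 3 and 4, mutant 1). Without the 3 mice of low Csf1r the difference was 0.41 in the deep brain (adjusted p = 0.0923) and 0.84 in the cortex (adjusted p = 0.0793). Summed oligodendrocyte markers in deep brain astrocytes overlapped between genotypes (540 to 749 CPM in mutants and 535 to 790 CPM in controls), as did those of microglia (72.1 to 116 and 78.5 to 105 CPM). In cortical astrocytes the oligodendrocyte markers held 314 to 625.4 CPM in mutants and 360 to 636 CPM in controls, and the microglial markers 93.3 to 280 CPM and 73.1 to 150 CPM. Csf1r itself reached 131 CPM in cortical astrocytes of mutant 3 (27 nuclei), the library with the highest Csf1, against 5.03 to 28.3 CPM in the other mutants and 3.37 to 30.5 CPM in controls. Without mutant 3 the cortical Csf1 difference was 0.68 (edgeR, adjusted p = 0.0397).

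Csf1 was also higher in mutant endothelial nuclei of the deep brain, the cells that line the vessels. Mutants held 84.9 to 209 CPM (median 151) and controls 50.2 to 89.9 CPM (median 70.2), and 1 mutant lay within the control range. The log2 difference was 1.06 ± 0.25 (edgeR, 6 against 6, adjusted p = 0.0266), where 1.49% of genes were called and 1.01% as higher. It lost the call without control 2, 4 or 6 or without mutant 2 or 3 (range 0.90 to 1.22, adjusted p from 0.00866 to 0.101), and was 1.31 without the 3 mice of low Csf1r (adjusted p = 0.0177). The counts are small, with 141 UMIs in 325 mutant nuclei and 60 in 350 control nuclei. Mural markers differed in the same nuclei, with a sum of 90.0 to 1346 CPM in mutants and 1054 to 3751 CPM in controls and all 7 markers detected in both. Mural nuclei themselves held 2 Csf1 UMIs, at 8.61 ± 17.9 CPM (n = 9). The part of these markers in the result was not tested.

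In oligodendrocytes, the class with the highest mean level of Csf1 in both regions, no difference passed the test. Deep brain levels were 118 to 177 CPM in mutants (median 143) and 137 to 154 CPM in controls (median 146), a log2 difference of 0.06 ± 0.09 (edgeR, adjusted p = 0.823, with 1.68% of genes called). In the cortex mutants held 137 to 190 CPM and controls 135 to 180 CPM, a log2 difference of 0.27 ± 0.11 (adjusted p = 0.296, 0.933% called). Over all cortical nuclei, Csf1 was 19.1 to 26.6 CPM in mutants and 14.7 to 18.9 CPM in controls, without overlap, a log2 difference of 0.36 ± 0.09 (adjusted p = 0.158, 0.275% called). In the deep brain the difference over all nuclei was 0.16 ± 0.10 (edgeR, adjusted p = 0.541, 1.54% called). A level over all nuclei cannot tell more nuclei of a class from a higher level per nucleus. The cortical difference passed with mice of the same replicate number as a block (adjusted p = 0.0268) and with DESeq2 (0.0246). Oligodendrocyte precursors of the deep brain differed in Csf1 by -0.09 ± 0.18 (edgeR, adjusted p = 0.985, 0.056% called). Microglial Csf1 in the deep brain was 9.82 to 52.3 CPM in mutants and 5.95 to 43.7 CPM in controls (0.79 ± 0.34, adjusted p = 0.701, 0.137% called).

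Il34 in fibroblasts had a lower median in mutants but did not pass the test. Mutants held 122 to 265 CPM (median 144) and controls 171 to 359 CPM (median 257), and the ranges overlapped. The log2 difference was -0.67 ± 0.19 (edgeR, unadjusted p = 0.00186, adjusted p = 0.270), where 0.117% of genes were called. It passed when no gene was filtered out (-0.66, adjusted p = 0.0395), and without the 3 mice of low Csf1r the difference was -0.98 (adjusted p = 0.0726). In mural nuclei, which reached 10 in only 3 mutant libraries, the mutants held 141, 347 and 664 CPM and the 6 controls 251 to 823 CPM (-0.33 ± 0.44, adjusted p = 0.834, 0.0% called). In neurons of the deep brain mutants held 16.8 to 27.6 CPM and controls 21.5 to 25.1 CPM (-0.16 ± 0.11, adjusted p = 0.612, 0.283% called), and in the cortex the difference was -0.07 ± 0.08 (adjusted p = 0.856, 0.00606% called).

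**Figure D4:**
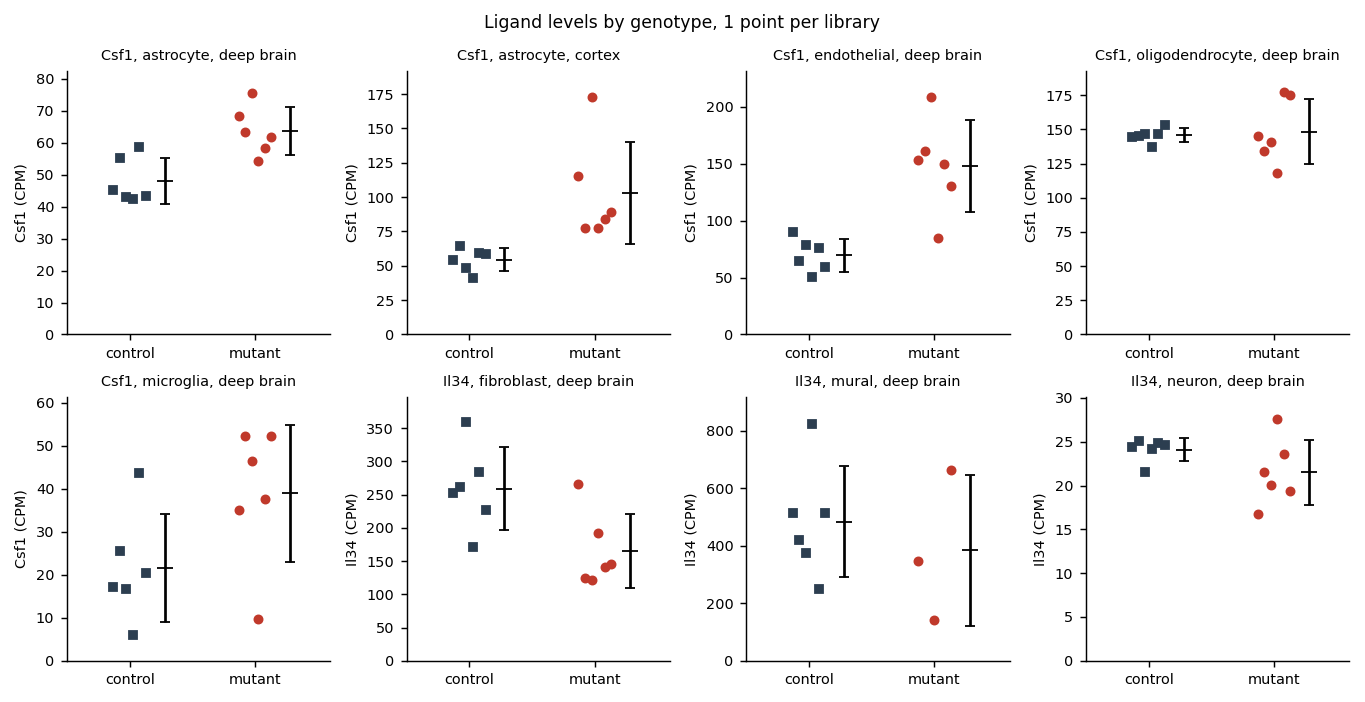
Csf1 and Il34 by genotype in the classes that carry them, in CPM. Each point is 1 library with at least 10 nuclei of the class, and bars are the mean and SD. Csf1 in cortical astrocytes separates the genotypes, in deep brain astrocytes and endothelial nuclei the ranges overlap slightly, and the other panels overlap.

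No genotype difference of microglial Csf1r was detected beyond the spread between mice. The log2 difference was -0.15 ± 0.23 in the deep brain (edgeR, adjusted p = 0.975) and -0.27 ± 0.24 in the cortex (adjusted p = 0.982, 0.145% called). Without the 3 mice of low Csf1r, the difference was 0.04 in the deep brain and -0.07 in the cortex. These mice were chosen by this level, so the omission is no separate test of the genotype. In border macrophages of the deep brain the difference was -0.12 ± 0.30 with all mice (6 mutant and 4 control libraries, edgeR, adjusted p = 0.983, 0.0% called) and 0.12 without the 3. The share of microglia among nuclei differed in the deep brain. With the same nuclei with markers of other cells left out, they made up 1.79% to 2.26% of nuclei in mutants (mean 1.99%) and 1.39% to 1.84% in controls (mean 1.64%), a difference of 0.356 percentage points (two-sided exact permutation test, p = 0.00866, adjusted over both regions 0.0173). With these nuclei kept, the shares were 2.67% to 3.49% (mean 2.99%) and 2.16% to 2.89% (mean 2.44%), which differed by 0.548 points (p = 0.0108 by the same exact test). With them left out, the homeostatic-like cluster described below held 800 mutant and 805 control nuclei. An unnamed cluster led by mitochondrial genes held 403 and 155, and mutant 4 gave 210 of the 403. The CAM-like, interferon response and proliferating-like clusters held 35 and 4, 34 and 13, and 20 and 8. The share was not tested cluster by cluster. In the cortex the shares were 0.264% to 2.96% and 0.415% to 2.37% (exact permutation test, p = 0.753). The share of microglia with a Csf1r UMI after thinning each nucleus to 1000 UMIs was 92.7 ± 8.95% in mutants and 95.5 ± 6.32% in controls of the deep brain (exact permutation test, p = 0.548), and none of the 6 such shares passed.

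Among deep brain microglia, Csf1 had its highest level in the nuclei that carry the markers of calcification-associated microglia (CAM), the microglia that surround calcifications. The study names Csf1 among the genes of these cells and Csf1r among those of resting microglia, so the values are a description with no test, and all 3 genes were left out of the clustering. The CAM-like cluster held 39 nuclei, 35 of mutants and 4 of controls, and had all 11 markers looked for, among them Lpl, Spp1 and Igf1. The homeostatic-like cluster held 1605 nuclei. Csf1 stood at 464 CPM in CAM-like nuclei (50 UMIs, 95% Poisson interval 344 to 612) and at 18.9 CPM in homeostatic-like nuclei (69 UMIs, 14.7 to 23.9). With coarser clustering of the microglia (resolution 0.2) the cluster with the CAM markers held 66 nuclei and 275 CPM of Csf1. That cluster also met 5 proliferation markers, with Mki67 and Top2a among its leading genes, so it is not CAM-like nuclei alone. Csf1r went the other way, with 2654 CPM (2355 to 2980) and 4549 CPM (4481 to 4619). The intervals cover counting error only.

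Both directions were seen in each of the 4 libraries with at least 5 CAM-like nuclei, which are mutants 2, 3, 5 and 6 and include none of the mice with low Csf1r. Their CAM-like nuclei, 5, 10, 6 and 9 in number, held 592, 432, 321 and 482 CPM of Csf1, from only 9, 11, 5 and 12 UMIs. Their homeostatic-like nuclei held 29.5, 14.9, 23.8 and 25.7 CPM, from 9, 4, 10 and 8 UMIs. Csf1r was 3026, 3848, 2633 and 2530 CPM in the CAM-like nuclei and 4506, 5701, 5534 and 5754 CPM in the homeostatic-like nuclei. A Csf1 UMI was found in 18 of the 39 CAM-like nuclei. A Csf1r UMI was found in 37 of the 39, the 18 included, and in 1602 of the 1605 homeostatic-like nuclei. Nuclei with interferon response genes held 76.9 CPM of Csf1 from 8 UMIs (33.2 to 152) and proliferating-like nuclei 34.1 CPM from 3 UMIs (7.02 to 99.5). Il34 gave 1 UMI in CAM-like nuclei. In homeostatic-like nuclei alone, Csf1r differed by -0.08 ± 0.20 between genotypes (edgeR, adjusted p = 0.981, 0.0987% called) and by 0.07 without the 3 mice, and the libraries gave 1841 to 5754 CPM with the 3 mice above lowest. Of the 270 microglia of mutant 4, 51 were in this cluster and 210 in an unnamed one led by mitochondrial genes.

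**Figure D5:**
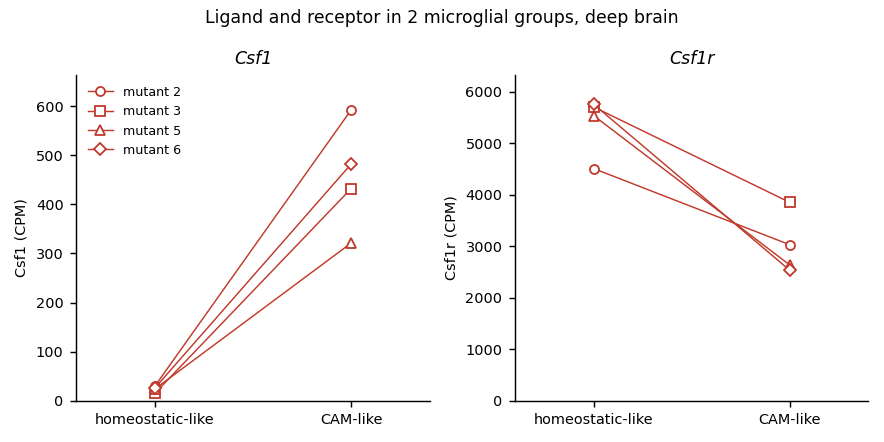
Csf1 (left) and Csf1r (right) in homeostatic-like and CAM-like microglia of the 4 deep brain libraries with at least 5 CAM-like nuclei, in CPM, with 1 line per mouse. In each mouse Csf1 is higher and Csf1r lower in the CAM-like nuclei. The CAM-like Csf1 values rest on 5 to 12 UMIs per mouse.

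The regions were compared in control mice, in 1 fit over the 4 groups of region and genotype. Of 12 pairs of gene and class with enough counts, 2 passed. Neuronal Il34 was lower in the deep brain, by -0.78 ± 0.10 on the log2 scale (edgeR, adjusted p = 1.2e-06), where 38.9% of genes were called. In all 12 mice the deep brain was lower, at 0.473 to 0.794 times the cortical level. The regions hold different neurons. The largest deep brain cluster (28522 nuclei of mixed transmitter genes) held 22.3 CPM, and the largest cortical ones were the Slc17a7 clusters above. No fit within a kind of neuron is given, because the transmitter classes hold different clusters in each region. Oligodendrocyte Il34 passed too (-1.32 ± 0.29, edgeR, adjusted p = 0.00563, 5.56% called) at 3.61 and 8.81 CPM, levels like those of other classes in which the gene is near 0. Over all nuclei, Csf1 was higher in the deep brain (0.45 ± 0.10, edgeR, adjusted p = 0.000967) and Il34 lower (-0.92 ± 0.11, adjusted p = 9.3e-07), where 37.9% of genes were called. Within classes, Csf1 in astrocytes was higher in the cortex in 11 of 12 mice without passing the test, either unpaired (-0.23 ± 0.16, edgeR, adjusted p = 0.466, 9.85% called) or with the mouse as a block (-0.19, edgeR, adjusted p = 0.472), and in oligodendrocyte precursors the difference was 0.11 ± 0.26 (edgeR, adjusted p = 0.951, 2.84% called).

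Microglial Csf1r was higher in the cortex in 12 of 12 mice, with the deep brain at 0.745 to 0.996 times the cortical level. The sum of the 5 microglial genes was also higher in the cortex in all 12 mice (5218 to 8214 CPM, against 4748 to 6421 CPM in the deep brain). The unpaired fit did not call Csf1r (-0.30 ± 0.25, adjusted p = 0.780, 1.54% called). With the mouse as a block, which takes up the split between mice, the difference was -0.31 ± 0.08 (edgeR, adjusted p = 0.0180), in a fit that called 217 of 8364 genes. The block brought the calls among the 12 pairs from 2 to 5. The added ones were all Csf1r, in microglia, in neurons (-0.52 ± 0.20, edgeR, adjusted p = 0.04998, with 9011 of 20317 genes called) and in oligodendrocytes (-0.58 ± 0.17, edgeR, adjusted p = 0.0265, with 1443 of 13648 called), and its mean in these neurons and oligodendrocytes was 2.93 to 12.7 CPM. Without the 3 mice the unpaired difference of microglial Csf1r was -0.28. No genotype difference of a member differed between the regions in the interaction test (0 of 12 with edgeR, 0 with unadjusted p under 0.05). For Csf1 in astrocytes the interaction was -0.41 ± 0.21 (edgeR, adjusted p = 0.940, 0.0% called) and over all nuclei -0.22 ± 0.14 (edgeR, adjusted p = 0.925, 0.00463% called).

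Few genes of any kind passed the genotype test in microglia, 0.137% in the deep brain and 0.145% in the cortex, and the 0 calls among the other genes of the pathway lie near that background. Of 8 transcription factors of the macrophage lineage and the Csf1r locus, such as Spi1 and Runx1, 6 were tested in deep brain microglia and 0 called by edgeR between genotypes. Of 20 genes that pass the signal of the receptor on, 19 were tested, of 9 inhibitors 4, of 5 genes of receptor and ligand shedding 2, of 10 related cytokines and receptors 5 and of 4 genes that bind IL34 3, and 0 were called in any list. In the cortex the lists gave 0 calls as well. Named here after their values were seen, at an unadjusted p under 0.05, Csf1 and Kitl, the ligand of the related receptor Kit, had positive differences in deep brain microglia (Kitl 0.45 ± 0.16, edgeR, adjusted p = 0.540). In deep brain endothelial nuclei Kitl was called in the opposite direction (-0.68, edgeR, adjusted p = 0.0348, 1.49% called). In deep brain astrocytes Mef2c and Pik3r1, also named after their values were seen, were called lower in mutants (5.00% called). Between regions, Tyrobp, the adaptor through which TREM2 signals, was lower in deep brain microglia of controls (-0.80 ± 0.16, edgeR, adjusted p = 0.00381). In simulated microglia of the deep brain, 88.9% of 99 genes changed 2-fold and 100% of 99 changed 4-fold were called. The real test called 10 of 7295 genes. With fewer calls the adjusted threshold is stricter, so the simulated shares do not carry over to the lists.

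The genes whose levels were most like those of each member were sought over 26 combinations of class and region among 16448 genes. Csf1r ran closest to C1qc, C1qb, C1qa, Ctss and Tyrobp (Pearson r of log2 levels 0.994 to 0.985), all known as microglial genes. Csf1 ran closest to Pla2g6 (0.892), Ddx17, Ddit4, Mpp5 and Lap3, and Il34 to Col6a2 (0.885), a collagen gene of the vessel wall, Gm28055, Sept11, Mprip and Utp4. These points share libraries and depth, and the correlations are a description.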

How the data were processed

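Nuclei from 12 mice, 24 libraries in all, were sequenced with the 10x 5′ chemistry. The authors counted UMIs per gene and barcode, introns included, on mm10, and per the labels used Cell Ranger 5.0.1 and bcl2fastq 2.20.0.422. The deposited values are raw counts. Nuclei with 500 to 7000 genes and under 20% mitochondrial UMIs were kept. Nuclei were clustered with Seurat 5.3.0 in steps (resolution 0.01, then 0.1, and 0.3 for the myeloid cluster, the last chosen after clusters were seen), with the 3 members left out of the variable genes, and named from marker lists. Doublets were called with Scrublet but not removed, since it marked 0% to 46.8% of cortical nuclei. Counts were summed per mouse and class (at least 10 nuclei) and fitted with edgeR 4.0.16 (TMM, quasi-likelihood, Benjamini-Hochberg). DESeq2 1.42.0 was an alternative. Shares were compared by exact permutation tests over 924 splits, and counting intervals were exact. The scripts were tested on simulated counts. Libraries of 1 mouse share a replicate number, genotype and age, which pairs the regions. Between genotypes, same-numbered mice deviated together over all cortical nuclei (r of 0.379 to 0.907 in 6 of 6 pairs). The members and gene lists were chosen with earlier results of these data known. By the rule for named genes, members may be named in every class, some only within a range, and pathway genes where they passed 0.05 in microglia (1 result is not reported here) or, outside that rule, where the text says that they were named after their values were seen, and the 5 genes most like each member. P-values measure the spread between mice.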

Additional observations from a re-analysis of the deposited data

Results flagged for a closer look

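Of 45 groups of at most 6 libraries examined, 5 held a library far from the others by Dixon's criterion, where chance gives about 1 in 20. The groups share mice and in part nuclei, so they are not independent of each other. Control replicate 1 was lowest for Csf1r in microglia in the cortex (2605.3 CPM, the nearest library at 5643.2 CPM) and in the deep brain (1940.3 CPM, the nearest at 4722.7 CPM), and for Csf1r over all nuclei of the deep brain (21.314 CPM, the nearest at 45.692 CPM). Mutants 1 and 4 lay as low in their own groups, where a pair of low libraries does not meet the criterion. Control replicate 6 was highest for Csf1 in cortical microglia (89.982 CPM, the nearest at 35.504 CPM). Control replicate 3 was lowest for Il34 in neurons of the deep brain (21.491 CPM, the nearest at 24.189 CPM). No cause was tested.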

How the results depend on the processing

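Leaving out 1 mouse in turn kept every direction of the Csf1 differences in astrocytes (deep brain 0.33 to 0.45, cortex 0.68 to 0.88) and endothelial nuclei (0.90 to 1.22), with the lost calls given above. It moved Csf1r between -0.31 and 0.0052 in deep brain microglia (the latter without mutant replicate 4) and between -0.24 and 0.0673 in homeostatic-like nuclei (0.0673 without mutant replicate 1, 0.0512 without mutant replicate 4), and the microglial share in the cortex between -0.0833 and 0.516 percentage points (-0.0833 without mutant replicate 6, -0.0700 without mutant replicate 5). Member calls between genotypes fell from 3 to 1 without control replicate 6, the male. Without control replicate 4 all 3 Csf1 calls were lost (edgeR, adjusted p = 0.0802 and 0.0588 in astrocytes of the deep brain and cortex and 0.0520 in endothelial nuclei). The calls among all genes in these single omissions are not given here, so the loss cannot be read as particular to the members. Whether the sex of the mouse plays a part was not tested. Without the 3 mice of low Csf1r, added after seeing the data, calls numbered 1 between genotypes and 4 between regions. The calls among all genes moved as well, between genotypes from 639 to 352 in deep brain astrocytes, from 147 to 86 in cortical astrocytes and from 53 to 28 in endothelial nuclei, and between regions from 129 to 137 in microglia, from 7903 to 6799 in neurons and from 759 to 638 in oligodendrocytes. Without these mice Csf1 in astrocytes was 0.41 in the deep brain and 0.84 in the cortex. Csf1r, by which they were chosen, turned to 0.0386 in deep brain microglia, 0.0719 in homeostatic-like nuclei and 0.119 in border macrophages. With the replicate block, that is the mouse between regions, member calls between regions numbered 5, beside a rise from 129 to 217 in the calls among all genes of microglia, and microglial Csf1r was -0.31, and between genotypes Csf1 over all cortical nuclei passed at 0.36, as with DESeq2 at 0.37. The age block gave an adjusted p of 0.0508 there. Same-numbered mice deviated together in 4 of 6 pairs of the deep brain. Il34 in fibroblasts passed without a filter on low counts (-0.66). The share of cortical microglia with a Csf1 UMI differed by 1.47 points thinned and turned to -2.86 points unthinned. At a resolution of 0.2 Csf1 was 275 CPM in the cluster with the CAM markers, which there also held proliferating-like nuclei. Homeostatic-like Csf1r was 4323 CPM at 0.8, 4317 CPM at 0.2 and 4444 CPM with a limit of 2 UMIs for contaminating nuclei. Removal of doublets is not given for the cortex, where Scrublet calls were unusable. Shallow cortical libraries limit all cortical values.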
